A study of Mus musculus with 12 samples.

Results

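The genes described here were 9 genes of the complement system in mouse optic nerve: the C1q chains C1qa, C1qb and C1qc, the C1 proteases C1ra and C1s1, the components C4b and C3, the inhibitor Serping1 and the receptor C3ar1. They were chosen by name, as the genes so called in the deposited count table, and all 9 of 9 were found among the 35275 genes listed. All 9 also passed the filter on low counts that left 18344 genes for testing. The study sequenced poly(A) RNA of optic nerve in 12 libraries from mice that model NF1 (neurofibromatosis type 1), a disorder in which optic pathway glioma can arise. The labels put 3 libraries in the carboplatin group (a platinum drug that cross-links DNA), 3 in the selumetinib group (an inhibitor of the kinases MEK1 and MEK2) and 6 in the PBS group (phosphate-buffered saline). All 12 titles carry NF1, the PBS libraries are called controls in theirs, and no wild-type library was used here. The sources used here give no Nf1 allele, Cre driver, strain, dose, schedule, age, sex or time of collection. The labels name nerve cells as the cell type and do not state whether each library is a separate animal. The p-values below therefore set group differences against the spread among these libraries only. That spread may be in part technical and need not be the spread among animals.

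Complement is a cascade of proteins that marks cells, debris and synapses for removal. In its classical branch the C1q chains assemble with the proteases C1r and C1s, C1s cleaves C4 and C2, and the resulting convertase cleaves C3, whose fragments coat the target and signal to cells. In the brain and optic nerve microglia are the main source of C1q, astrocytes and other glia make C4 and C3, and C1q and C3 are known for their part in the removal of synapses of retinal axons. The mouse gene C4b encodes C4, Serping1 encodes the C1 inhibitor that inactivates C1r and C1s, and C3ar1 encodes the receptor of the C3 fragment C3a.

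In carboplatin nerves against PBS nerves 0 of the 9 genes rose and 0 fell (edgeR, adjusted p under 0.05), where 2.09% of all genes tested were called, 1.57% as higher and 0.518% as lower. At an unadjusted p under 0.05 the counts were also 0 and 0, against 8.12% of all genes on the higher and 8.43% on the lower side, and DESeq2 called 0. In selumetinib nerves against PBS nerves 0 of the 9 rose and 0 fell, where 0.00% of all genes were called. All 9 had a lower fitted level in selumetinib nerves, 6 of them at an unadjusted p under 0.05 (C1qb, C1qc, C1ra, C3, Serping1 and C3ar1), against 1835 of all 18344 genes on the lower and 14.0% on the higher side. DESeq2 called C1ra lower, but it called far more of all genes than edgeR here (counts given among the effects of processing). No gene of the 9 had all selumetinib libraries above or all below the PBS libraries, where 3.23% and 2.70% of all genes were so placed. In carboplatin nerves against selumetinib nerves C3 rose, 1 of 9, where 14.0% of all genes were called, 5.65% as higher and 8.35% as lower. In that comparison all 9 fitted differences were positive and 5 passed an unadjusted p under 0.05 (C1qa, C1qb, C1qc, C3 and Serping1), against 13.6% of all genes on the higher side. The median log2 fold change of the 9 was 0.18, -0.98 and 0.86 in the comparisons of carboplatin with PBS, selumetinib with PBS and carboplatin with selumetinib. The medians over all genes tested were -0.11, -0.09 and -0.01. The first pair of comparisons share their PBS libraries, and each treatment group enters 2 comparisons.

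**Figure D1:**
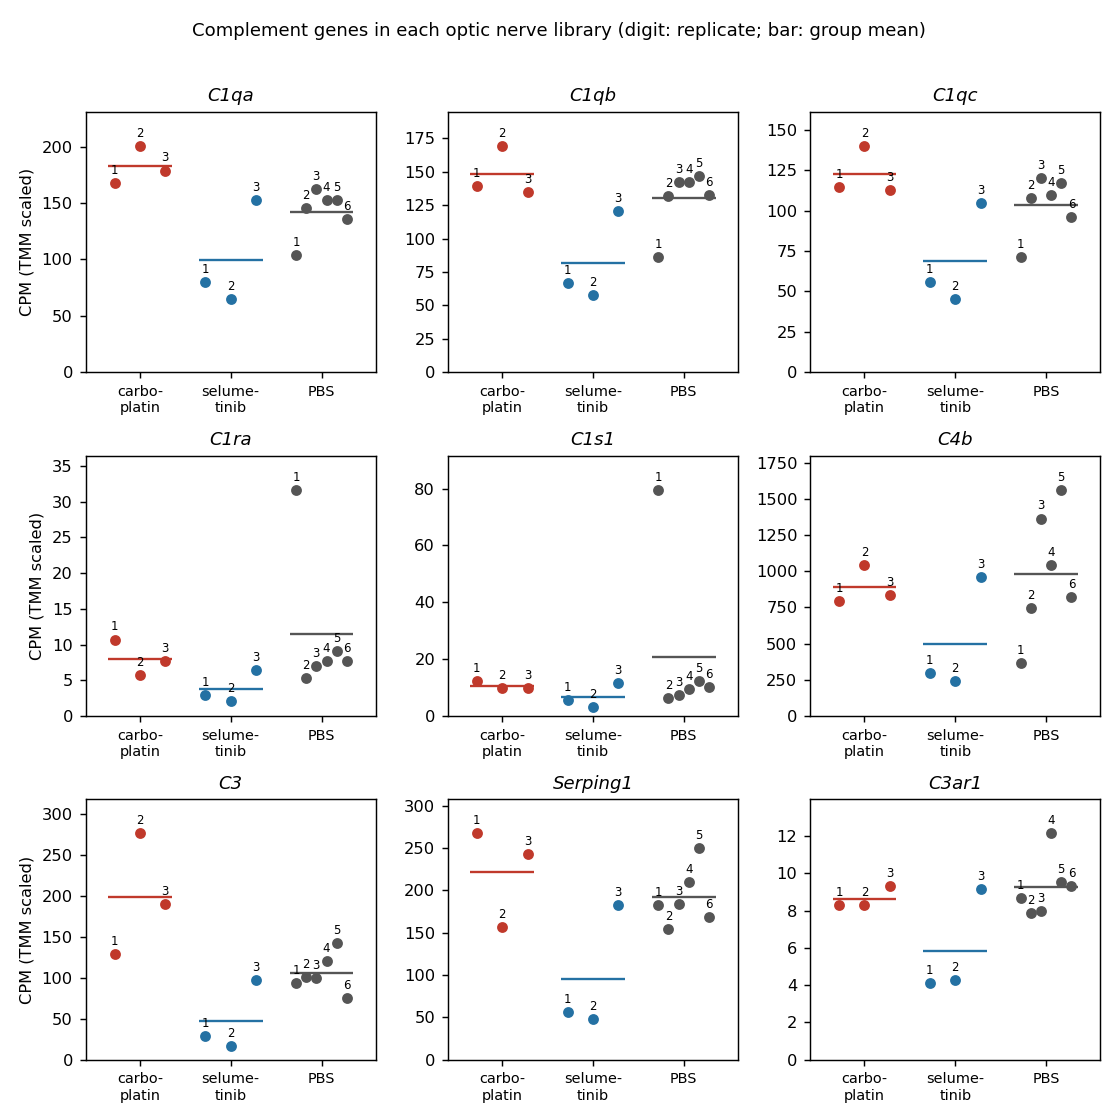
Levels of the 9 complement genes in CPM, counts scaled by TMM library size (vertical axes, each from 0), in the carboplatin, selumetinib and PBS libraries. Each point is a library with its replicate number and each bar a group mean. Selumetinib 1 and 2 lie below every PBS library for all 9 genes, selumetinib 3 lies within the PBS range for all 9, and PBS 1 stands above all other libraries for C1ra and C1s1.

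The libraries held 21793052 to 33375754 counts, and levels below are CPM, the counts after scaling to 1 library size. Although the labels name nerve cells, oligodendrocyte and astrocyte markers summed to at least 19106 and 4541 CPM in every library and neuron markers to at most 1607 CPM. Some libraries stood apart from the others of their group in marker genes of cell types. Summed over 10 oligodendrocyte marker genes, selumetinib 1 and 2 held 27788 and 19106 CPM and PBS 1 held 28452 CPM, while selumetinib 3 held 65399, the other PBS libraries 59063 to 69418 and the carboplatin libraries 50698 to 95137 CPM. PBS 1 also held 54007 CPM over 8 skeletal muscle genes, against at most 1573 CPM in any other library. PBS 2 and 3 held 169 and 251 CPM of these and carboplatin libraries 84.6 to 1573 CPM. PBS 4 to 6 held 9.72 to 10.5 CPM and selumetinib libraries 8.77 to 21.7 CPM. The labels used here do not state whether PBS 1 to 3 with carboplatin and PBS 4 to 6 with selumetinib are separate sets. If they are, treatment and set cannot be told apart in carboplatin over selumetinib. Each comparison with all PBS libraries would then also mix controls of both sets. Counts for carboplatin over PBS with PBS 1 to 3 or PBS 4 to 6 alone are given among the effects of processing. Carboplatin 1 and 3 held 824 and 1572 CPM over 8 photoreceptor genes, against 41.6 CPM in carboplatin 2, at most 3.01 CPM in selumetinib libraries and at most 129.5 CPM in PBS libraries. Where PBS 1, selumetinib 1 or selumetinib 2 changed a call, a direction or an overlap described below, the value without it is given beside it or among the effects of processing.

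Levels between genes were compared per length, as CPM per kb of exonic length. C4b and C1qa stood highest, with 156 ± 23.3 and 175 ± 16.01 CPM per kb in carboplatin libraries, 87.9 ± 69.9 and 95.5 ± 45.4 in selumetinib libraries, and 173 ± 76.4 and 137 ± 19.996 in PBS libraries (SD, n = 3, 3 and 6). C1qb followed with 136 ± 17.1, 74.9 ± 31.1 and 119.8 ± 20.6 CPM per kb in the same order of groups, and Serping1 with 95.6 ± 24.96, 41.0 ± 32.4 and 82.5 ± 14.7. By group mean, C4b was first and C1qa second in PBS libraries and the reverse held in both treatment groups, C3ar1 was above C1ra in selumetinib libraries only, and the order was otherwise the same in all 3 groups. C1qc held 63.4 ± 7.88, 35.5 ± 16.4 and 53.7 ± 9.29 CPM per kb in carboplatin, selumetinib and PBS libraries. C3 held 38.6 ± 14.4, 9.31 ± 8.35 and 20.5 ± 4.49. The lowest 3 were C1s1, C1ra and C3ar1, whose group means lay between 1.28 and 6.68 CPM per kb. In PBS libraries the ranges of C4b, C1qa, C1qb and Serping1 overlapped from each to the next, Serping1 lay above C1qc and C1qc above C3 with no overlap, and the ranges of C3, C1s1, C1ra and C3ar1 again overlapped. PBS 1 alone made some of these overlaps. In PBS 2 to 6 C1qb was at least 120.9 CPM per kb and Serping1 at most 107.5, and C3 was at least 14.6 and C1s1 at most 3.95, so that both pairs were apart. Without PBS 1 the PBS mean of C1s1 was 2.93 ± 0.768 CPM per kb, against 6.68 with it, and that of C1ra was 2.47 ± 0.468 (SD, n = 5), against 3.83. Reads shared with near-identical neighbours can move some of these levels. C4b shares 35.2% of its 50-base words with C4a, C1ra 48.0% with C1rb and C1s1 24.3% with C1s2. C4a took at most 1.08% of the counts of its pair, C1rb at most 0.897% and C1s2 at most 7.07%. Since the handling of shared reads was not given, these counts cannot show how many such reads were dropped from either gene.

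C1qa, C1qb and C1qc encode the A, B and C chains that together form C1q, the recognition part of C1. The genes (ENSMUSG00000036887, ENSMUSG00000036905 and ENSMUSG00000036896) lie side by side on the minus strand within 18.7 kb of chromosome 4, at chr4:136895917-136898803, chr4:136880129-136886187 and chr4:136889804-136893065 in build mm10. The bases upstream of a pair of these neighbours are shown because the chains moved together across libraries. They are taken from RefSeq (GRCm38.p6), 5′ to 3′ on the strand of the gene, and are cut to the bases outside the annotated gene.
C1qb chr4:136886201-136886450 (- strand): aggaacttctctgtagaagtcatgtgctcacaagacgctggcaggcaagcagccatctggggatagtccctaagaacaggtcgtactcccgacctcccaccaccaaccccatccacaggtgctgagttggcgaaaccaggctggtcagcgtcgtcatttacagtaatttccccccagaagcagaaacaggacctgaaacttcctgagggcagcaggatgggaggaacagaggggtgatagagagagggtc
C1qc chr4:136893066-136893164 (- strand): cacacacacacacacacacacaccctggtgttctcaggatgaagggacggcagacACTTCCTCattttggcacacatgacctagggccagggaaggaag
Capitals mark a match to GAGGAAGT, a word bound by the myeloid factor PU.1, which here reads ACTTCCTC on the gene's strand and starts 195 bases before the RefSeq start. Both strands were searched for this word and for words of 4 other factors (below for C3), and no such word was in the C1qb window. Of 32851 RefSeq windows of 250 bases before a gene start, 2.44% held the PU.1 word, so a match in 1 of the 7 windows found for 6 of the 9 genes is a description only.

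C1qa was 168, 201 and 179 CPM in carboplatin 1 to 3, and 80.1, 64.8 and 153 CPM in selumetinib 1 to 3. In PBS nerves its lowest, median and highest values were 104, 149 and 163 CPM. All 3 carboplatin libraries lay above all 6 PBS libraries, and C1qa was the only 1 of the 9 genes so placed, where 6.97% of all genes tested had carboplatin above PBS with no overlap and 5.23% below. The group means were 182 ± 16.6 CPM in carboplatin and 142 ± 20.8 CPM in PBS (SD, n = 3 and 6). The difference did not pass the test (log2 fold change 0.36 ± 0.24 SE, 95% interval -0.17 to 0.89, edgeR adjusted p 0.492). C1qb was 139.6, 169 and 135 CPM in carboplatin 1 to 3 and 66.5, 57.9 and 120.3 CPM in selumetinib 1 to 3, and its lowest, median and highest PBS values were 86.1, 137 and 147 CPM. Carboplatin 1 and 3 fell inside the PBS range of this chain and carboplatin 2 above it. C1qc was 115, 140.0 and 113 CPM in carboplatin 1 to 3 and 55.8, 45.4 and 105 CPM in selumetinib 1 to 3, and its lowest, median and highest PBS values were 71.3, 109 and 120.2 CPM. The log2 fold changes of carboplatin over PBS were 0.18 ± 0.24 for C1qb and 0.24 ± 0.25 for C1qc (edgeR adjusted p 0.729 and 0.667).

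Against PBS, the fitted level of the chains in selumetinib nerves was lower by -0.52 ± 0.25 for C1qa, -0.68 ± 0.24 for C1qb and -0.60 ± 0.26 for C1qc on the log2 scale (edgeR adjusted p 0.227, 0.142 and 0.189). None passed the test. Selumetinib 1 and 2 were below every PBS library for each chain and selumetinib 3 was inside the PBS range, which for C1qb rested on PBS 1: selumetinib 3 lay below the 132 to 147 CPM of PBS 2 to 6. Leaving out selumetinib 3 left 2 libraries in the group and gave log2 fold changes of -0.95, -1.04 and -1.01 for C1qa, C1qb and C1qc. Each then passed (edgeR adjusted p 0.00999, 0.0107 and 0.0120), as did many of all genes tested (counted below). Leaving out PBS 1, selumetinib 1 and selumetinib 2 gave 0.02, -0.22 and -0.08, from a single selumetinib library whose spread was assumed to be that of the other groups. Between the treatments all 3 carboplatin libraries lay above all 3 selumetinib libraries for each chain, as they did for C3, making 4 of the 9 genes, where 20.9% of all genes tested were so placed. The log2 fold changes of carboplatin over selumetinib were 0.88 ± 0.28, 0.86 ± 0.28 and 0.84 ± 0.29 for C1qa, C1qb and C1qc, which did not pass (edgeR adjusted p 0.0608, 0.0596 and 0.0757). They passed without PBS 1 (adjusted p 0.0278, 0.0198 and 0.0331), without selumetinib 3 (0.00313, 0.00646 and 0.00601) and with DESeq2 (0.0220, 0.0225 and 0.0371). DESeq2 also called more of all genes than the main fit. Its count and the range of counts without 1 library are given among the effects of processing.

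The 3 chains kept close to a fixed proportion in every library. The ratio of C1qb to C1qa ran from 0.755 in carboplatin 3 to 0.980 in PBS 6, a span of 1.297-fold, and that of C1qc to C1qa from 0.631 in carboplatin 3 to 0.766 in PBS 5, a span of 1.21-fold. Over the same 12 libraries C1qa itself differed by more, with 64.8 CPM in selumetinib 2 and 201 CPM in carboplatin 2. The root mean square difference between mean-centred log2 profiles was 0.0681 to 0.109 for the 3 pairs of chains and 0.267 to 1.28 for the other 33 pairs among the 9 genes. Within this narrow band the ratio of C1qb to C1qa averaged 0.810 ± 0.0478 in carboplatin libraries, 0.836 ± 0.0539 in selumetinib libraries and 0.913 ± 0.0562 in PBS libraries. Carboplatin and PBS libraries overlapped in this ratio through PBS 1 alone, which held 0.8292: carboplatin libraries lay at 0.755 to 0.844 and PBS 2 to 6 at 0.874 to 0.980. The ratio of C1qc to C1qa was 0.631 to 0.698 in carboplatin libraries, 0.684 to 0.700 in selumetinib libraries and 0.7096 to 0.766 in PBS 2 to 6, with 0.687 in PBS 1. Without PBS 1 both treatment groups thus lay below PBS for C1qc over C1qa, while selumetinib and PBS still overlapped for C1qb over C1qa. Outside the 9 genes, the profiles most like the mean of the chains belonged to Ppp1r18, Cttnbp2nl and Slc25a45, at 0.0884, 0.102 and 0.103, among the 12839 genes whose log2 CPM averaged 1 or more, for which the median was 0.593.

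C1q was also set against microglia as a whole. The 16 microglia marker genes, all detected in every library, summed to 1107, 1668 and 1138 CPM in carboplatin 1 to 3, to 852, 696 and 1397 CPM in selumetinib 1 to 3, and to 709 CPM in PBS 1 and 1452 to 1783 CPM in PBS 2 to 6. The marker sum of selumetinib 1 and 2 was thus low in the same libraries as C1q. The summed C1q level was 0.238, 0.241 and 0.271 of this marker sum in selumetinib 1 to 3, inside or next to the 0.238 to 0.262 of PBS 2 to 6. In carboplatin 1 to 3 it was 0.381, 0.306 and 0.375 of the marker sum, above PBS 2 to 6, while PBS 1 held 0.368, so the carboplatin and PBS groups overlapped. Of the 16 markers 0 rose and 1 fell in carboplatin nerves against PBS nerves, the microglial receptor gene Fcrls (4.53 ± 2.71 CPM in carboplatin and 17.0 ± 5.22 CPM in PBS, SD; log2 fold change -1.91 ± 0.41, edgeR adjusted p 0.0388). That call passed in 8 of 20 alternatives, among them the fit without PBS 1 (adjusted p 0.0195). At an unadjusted p under 0.05 0 of the markers were higher and 2 lower, against 8.12% and 8.43% of all genes. In selumetinib nerves against PBS nerves edgeR called 0 higher and 0 lower. With no adjustment of p, 0 and 2 passed 0.05, against 14.0% and 1835 of all 18344 genes, so the lower count was near the share over all genes. In bulk tissue fewer cells of a type and less RNA per cell cannot be told apart, and the part of microglial number in the C1q values was not tested.

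**Figure D2:**
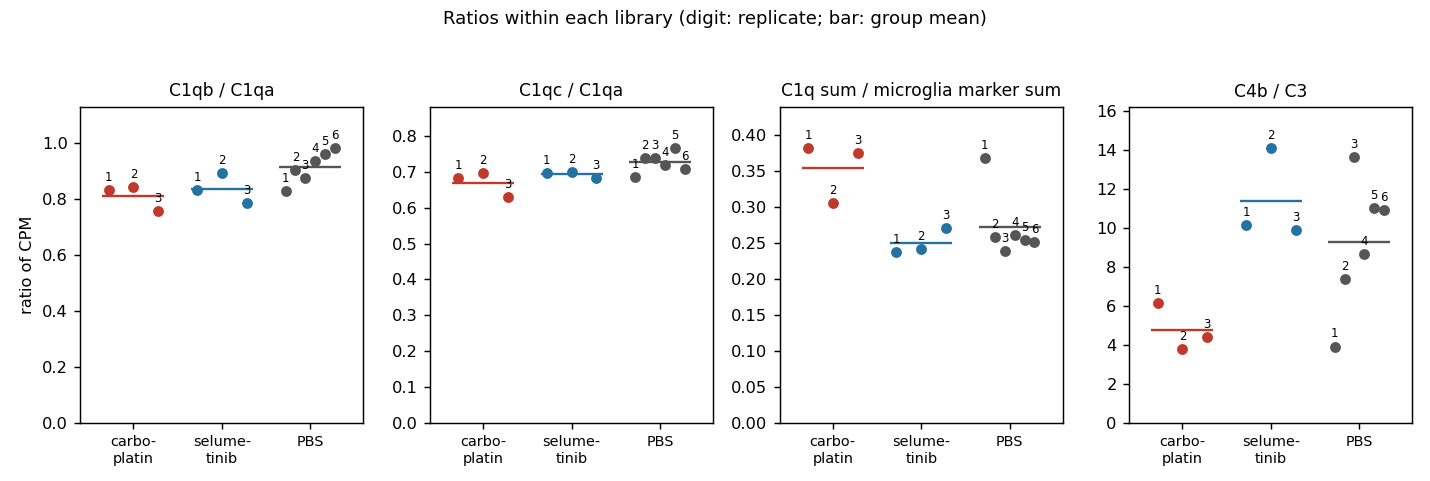
Ratios of CPM within each library (vertical axes from 0) for C1qb over C1qa, C1qc over C1qa, the summed C1q chains over 16 summed microglia markers, and C4b over C3, in carboplatin, selumetinib and PBS libraries. Points are libraries with their replicate number and bars are group means. The chains keep nearly one proportion, C1q over microglia markers is 0.306 to 0.381 in carboplatin libraries and 0.238 to 0.262 in PBS 2 to 6, and C4b over C3 is lowest in the carboplatin libraries and PBS 1.

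C1ra and C1s1 encode the serine proteases C1r and C1s of the C1 complex. C1ra (ENSMUSG00000055172, chr6:124512405-124523443, plus strand) and C1s1 (ENSMUSG00000038521, chr6:124530345-124542359, minus strand) are separated by 6901 bases. C1ra was 10.7, 5.71 and 7.71 CPM in carboplatin 1 to 3 and 2.94, 2.09 and 6.37 CPM in selumetinib 1 to 3, against 31.7 CPM in PBS 1 and 5.28 to 9.11 CPM in PBS 2 to 6. C1s1 was 12.2, 9.91 and 9.82 CPM in carboplatin 1 to 3 and 5.48, 3.27 and 11.6 CPM in selumetinib 1 to 3, against 79.6 CPM in PBS 1 and 6.20 to 12.4 CPM in PBS 2 to 6. PBS 1 was therefore 4.30 and 8.69 times the mean of the other PBS libraries for C1ra and C1s1, while its C1qa, C1qb, C1qc and C4b were 0.693, 0.619, 0.647 and 0.332 times that mean. Over 9 genes of border macrophages and blood monocytes PBS 1 held 581 CPM, of which Cbr2, a carbonyl reductase, made up 440.5 CPM. The other 8 genes of that list summed to 141 CPM in PBS 1 and 56.4 to 117 CPM in PBS 2 to 6. PBS 1 also held 498 CPM over 8 endothelial genes and 2584 CPM over 8 fibroblast genes, beside 234 to 303 and 1131 to 2018 CPM in PBS 2 to 6. Of the 9, 8 and 8 genes none was at 0 in a PBS library, and the part of these cells or of muscle in the protease values was not tested.

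The fitted log2 fold changes of carboplatin over PBS were -0.50 ± 0.58 for C1ra and -0.97 ± 0.83 for C1s1 (edgeR adjusted p 0.701 and 0.600). Their sign rested on 1 library: without PBS 1 they were 0.11 and 0.20 (adjusted p 0.860 and 0.751). In selumetinib nerves against PBS nerves they were -1.59 ± 0.62 and -1.62 ± 0.86 (adjusted p 0.161 and 0.265), and without PBS 1 they were -0.96 and -0.43 (adjusted p 0.106 and 0.416). DESeq2 called C1ra lower here (-1.57, adjusted p 0.0475), among many other genes. Between carboplatin and selumetinib the values were 1.08 ± 0.67 and 0.65 ± 0.93 (edgeR adjusted p 0.293 and 0.676), and the groups overlapped for both genes. The proteases kept near each other, with a root mean square difference of 0.348, and C1s1 was 1.07 times C1ra in PBS 3 and 2.51 times C1ra in PBS 1. The profiles most like C1ra were Myl12a, Clec2d and Anxa2 (0.195, 0.197 and 0.218, same 12839 genes), and those most like C1s1 were Smtn, Arhgap10 and Clec2d (0.246, 0.253 and 0.265). C1s1 shares 576 exonic bases with the antisense gene Gm16567, which had 483 counts in PBS 1 and 29 to 101 in each other library, and since the strand setting of the counting was not given, reads of this stretch cannot be told apart.

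C4b encodes C4, the component that C1s cleaves. The gene (ENSMUSG00000073418) lies at chr17:34728380-34743882 on the minus strand. It was 797, 1043 and 832 CPM in carboplatin 1 to 3 and 298, 244 and 959 CPM in selumetinib 1 to 3, and its lowest, median and highest PBS values were 368, 931 and 1563 CPM. The PBS libraries alone spread over 4.25-fold, more than the 1.31-fold of the carboplatin libraries, and PBS 1 was the lowest of them. Without PBS 1 they spread over 2.10-fold. Group means were 890.5 ± 133 CPM in carboplatin, 500.4 ± 398 CPM in selumetinib and 984 ± 435 CPM in PBS (SD, n = 3, 3 and 6). No comparison passed: the log2 fold change was -0.14 ± 0.49 for carboplatin over PBS (95% interval -1.22 to 0.93, edgeR adjusted p 0.910), -0.98 ± 0.51 for selumetinib over PBS (adjusted p 0.258) and 0.83 ± 0.57 for carboplatin over selumetinib (adjusted p 0.340). The nearest profiles were Cyp2j12, S1pr3 and Slc16a1 (0.243, 0.246 and 0.252).

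C3 encodes the component on which the branches of the cascade converge, and it was the 1 gene of the 9 that passed a test. It lies at chr17:57203970-57228136 on the minus strand (ENSMUSG00000024164). Its upstream bases are shown as those of the gene that was called, from RefSeq (GRCm38.p6), 5′ to 3′ on the strand of the gene.
C3 chr17:57228137-57228386 (- strand): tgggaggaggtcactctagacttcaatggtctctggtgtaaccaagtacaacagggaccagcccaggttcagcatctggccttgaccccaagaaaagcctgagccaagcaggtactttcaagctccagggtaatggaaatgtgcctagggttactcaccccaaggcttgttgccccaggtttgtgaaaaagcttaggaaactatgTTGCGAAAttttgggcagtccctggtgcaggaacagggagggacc
Capitals mark TTGCGAAA, a match to TTGCNNAA, a word bound by C/EBP factors, starting 45 bases before the gene. That word was in 9.56% of all 32851 windows, and among the windows of the 9 genes also in that of C1s1. On both strands GAAANNGAA (an interferon response word, 7.13% of windows), TTCNNNGAA (bound by STAT factors, 7.02%) and GGGANTTCC (bound by NF-kB, 1.43%) were in 0 of the 7 windows of these genes. Each match is a match of letters only.

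C3 was 129.5, 276 and 189.5 CPM in carboplatin 1 to 3 and 29.4, 17.3 and 96.9 CPM in selumetinib 1 to 3, and its lowest, median and highest PBS values were 74.96, 100.5 and 142 CPM. Every carboplatin library was above every selumetinib library, carboplatin 2 and 3 were above all PBS libraries, and carboplatin 1 was within the PBS range. The means were 198 ± 73.8 CPM in carboplatin, 47.9 ± 42.9 CPM in selumetinib and 105 ± 23.1 CPM in PBS (SD, n = 3, 3 and 6). C3 rose 4.15-fold in carboplatin nerves against selumetinib nerves (log2 fold change 2.05 ± 0.54, 95% interval 0.86 to 3.24, edgeR adjusted p 0.0340). The selumetinib libraries alone spread over 5.60-fold and the carboplatin libraries over 2.13-fold. Carboplatin over PBS gave 0.91 ± 0.44 (95% interval -0.05 to 1.88, adjusted p 0.330) and selumetinib over PBS gave -1.14 ± 0.48 (adjusted p 0.181), so the difference between the treatments lay on both sides of PBS and neither side passed alone. The call rested on few libraries, and it compares groups that may belong to separate sets of libraries (above). In 8 of 18 alternatives it did not pass, including the fits without carboplatin 1, 2 or 3 (adjusted p 0.0656, 0.108 and 0.0907), without selumetinib 1 or 2 (0.129 and 0.103) and with only the compared groups (0.0819), while the log2 fold change stayed between 1.02 and 3.07 in all 18. Without PBS 1, selumetinib 1 and selumetinib 2 together it was 1.02 (adjusted p 0.230), with 1 selumetinib library left.

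C4b and C3 did not keep a fixed proportion. C4b was 6.15, 3.77 and 4.39 times C3 in carboplatin 1 to 3, and 10.2, 14.1 and 9.89 times C3 in selumetinib 1 to 3. It was 3.92 times C3 in PBS 1 and 7.37 to 13.7 times C3 in PBS 2 to 6. All carboplatin libraries thus lay below all selumetinib libraries and below PBS 2 to 6, and overlapped the PBS group through PBS 1. Astrocyte marker genes, 10 in number and all detected in every library, summed to 12756, 18232 and 12701 CPM in carboplatin 1 to 3, to 6636, 5884 and 9976 CPM in selumetinib 1 to 3, and to 4541 CPM in PBS 1 and 10399 to 14037 CPM in PBS 2 to 6. This sum was highest in carboplatin 2 and low in selumetinib 1 and 2, as C3 was, and low in PBS 1, as C4b was. Gfap weighs most in it, with a mean of 6532 CPM over the 12 libraries. For selumetinib over PBS 5 of the 10 markers had a positive fitted log2 fold change, and the median was -0.10, so the markers did not fall together. In PBS 1 the 9 genes other than Gfap summed to 1379 CPM, against 4020 to 4721 CPM in PBS 2 to 6. That sum is not given for selumetinib 1 and 2, and the part of Gfap in their low astrocyte sum was not tested. Of the 10 markers Aldh1l1, a folate enzyme of astrocytes, rose in carboplatin nerves against PBS nerves (136.6 ± 7.95 CPM in carboplatin and 63.8 ± 19.9 CPM in PBS, SD; log2 fold change 1.10 ± 0.25, edgeR adjusted p 0.0461). That call passed in 6 of 20 alternatives, and without PBS 1 the log2 fold change was 0.94 (adjusted p 0.00304). No marker fell, where 1.57% of all genes rose and 0.518% fell. With no adjustment of p, 3 passed 0.05 as higher and 0 as lower, against 8.12% and 8.43% of all genes. For 4 markers all carboplatin libraries lay above all PBS libraries, as for 6.97% of all genes. Between carboplatin and selumetinib nerves 1 marker rose and 0 fell (median log2 fold change 0.66), where 5.65% of all genes rose. All carboplatin libraries were higher there for 5 markers and 20.9% of all genes. The part of astrocyte content in the C3 and C4b values was not tested. The profiles nearest to C3 were those of Mab21l2, Hs3st3a1 and Fam101b, at 0.321, 0.325 and 0.381, farther off than the nearest profiles of any other of the genes described here.

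**Figure D3:**
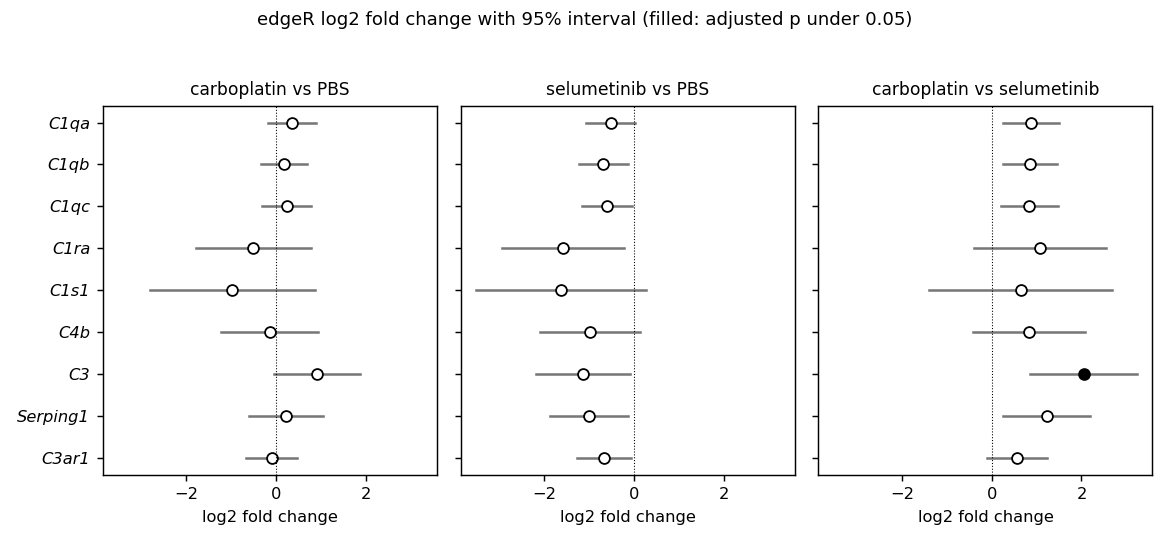
edgeR log2 fold changes (horizontal axes) of the 9 complement genes for carboplatin over PBS, selumetinib over PBS and carboplatin over selumetinib. Points are fitted values, bars their 95% intervals, and a filled point marks an adjusted p under 0.05. C3 in carboplatin over selumetinib (2.05) is the filled point, all 9 points lie below 0 for selumetinib over PBS, and the widest intervals are those of C1s1.

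Serping1 encodes the C1 inhibitor, which removes C1r and C1s from the complex. The gene (ENSMUSG00000023224) lies at chr2:84765387-84775444 on the minus strand. It was 267, 157 and 243 CPM in carboplatin 1 to 3 and 55.9, 48.0 and 182 CPM in selumetinib 1 to 3, and its lowest, median and highest PBS values were 155, 184 and 250.04 CPM. Carboplatin 2, the library with the most C3, C1qa, C1qb, C1qc and C4b of its group, had the least Serping1 of its group. The log2 fold change was 0.21 ± 0.38 for carboplatin over PBS, -1.01 ± 0.40 for selumetinib over PBS and 1.22 ± 0.44 for carboplatin over selumetinib (edgeR adjusted p 0.811, 0.162 and 0.0853). None passed, but DESeq2, which called more of all genes than edgeR there, called the last (1.21, adjusted p 0.0328). Without selumetinib 3 edgeR called both comparisons of selumetinib, at -1.85 against PBS (adjusted p 0.00196) and 2.08 for carboplatin over selumetinib (adjusted p 0.00125). Serping1 was 1.64 times the summed level of C1ra and C1s1 in PBS 1, 9.39 to 13.5 times that sum in PBS 2 to 6, 10.04 to 13.8 times in carboplatin libraries and 6.64 to 10.1 times in selumetinib libraries. The nearest profiles were Cnn2, Myof and Lamb2 (0.118, 0.145 and 0.171). Fibroblast marker genes, all 8 detected in every library, summed to 1108, 455 and 942 CPM in carboplatin 1 to 3 and 688, 437 and 1971 CPM in selumetinib 1 to 3, against 1131 to 2584 CPM in PBS libraries. Carboplatin 2 and selumetinib 1 and 2 were the lowest libraries in both this sum and, with PBS 2, in Serping1. Its part in the Serping1 values was not tested.

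C3ar1 encodes the receptor through which C3a acts on microglia and other cells. The gene (ENSMUSG00000040552) lies at chr6:122847138-122856161 on the minus strand. It was 8.31, 8.28 and 9.31 CPM in carboplatin 1 to 3 and 4.10, 4.26 and 9.15 CPM in selumetinib 1 to 3, and its lowest, median and highest PBS values were 7.87, 8.997 and 12.1 CPM. The carboplatin libraries differed by 1.13-fold among themselves, the narrowest range of the 9 genes in any group, and lay inside the PBS range. The log2 fold change was -0.10 ± 0.26 for carboplatin over PBS (95% interval -0.68 to 0.48), -0.66 ± 0.27 for selumetinib over PBS and 0.57 ± 0.30 for carboplatin over selumetinib (edgeR adjusted p 0.878, 0.171 and 0.227). Selumetinib 1 and 2 again lay below all PBS libraries and selumetinib 3 among them. The nearest profiles were Thsd1, Elf1 and Leprot (0.133, 0.138 and 0.146).

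The same division of the selumetinib group ran through all 9 genes. Selumetinib 1 and 2 were below every PBS library and selumetinib 3 inside the PBS range for 9 of 9 genes, a placement that 15.7% of all genes tested shared. Against PBS 2 to 6 alone this held for 8 of the 9, and for 3666 of all 18344 genes. The exception was C1qb, for which all 3 selumetinib libraries then lay below PBS, as they did for 4.78% of all genes. Against the PBS range, carboplatin 1, 2 and 3 were above it for 2, 4 and 2 of the 9 genes and below it for 0, where 14.2%, 16.5% and 15.6% of all genes were above it and 13.3%, 18.5% and 13.9% below. Without PBS 1 in the range carboplatin 1 was above it for 3 genes, with C1ra added, and the other counts were the same. Of all genes, 28.7%, 29.7% and 27.1% were then above it in carboplatin 1, 2 and 3, and 24.7%, 28.4% and 24.3% below. Without selumetinib 3 edgeR called 7 of the 9 genes lower in selumetinib nerves against PBS nerves (all but C1ra and C1s1), and 4089 genes in all. Without PBS 1, selumetinib 1 and selumetinib 2 it called 0 of the 9 in any comparison. The standard deviation of log2 CPM over the 12 libraries was 0.45 for C3ar1, 0.49 for each C1q chain, 0.79 for Serping1, 0.85 for C4b, 0.95 for C1ra, and 1.09 for C1s1 and C3. Over the 9 libraries left without PBS 1, selumetinib 1 and selumetinib 2 it was 0.13 to 0.36 for all but C3, which kept 0.57. The cell type sums of selumetinib 1 and 2 differed from those of selumetinib 3 in the same libraries: the oligodendrocyte, astrocyte, microglia, endothelial and fibroblast sums were lower, and the sum over 8 neuron genes was 1533 and 1607 CPM, against 220.2 CPM in selumetinib 3, 108 to 127 CPM in carboplatin libraries and 35.5 to 451 CPM in PBS libraries. The astrocyte markers were mixed, with 5 of 10 positive in the fit of selumetinib over PBS. The part of these cell types in the complement values was not tested.

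**Figure D4:**
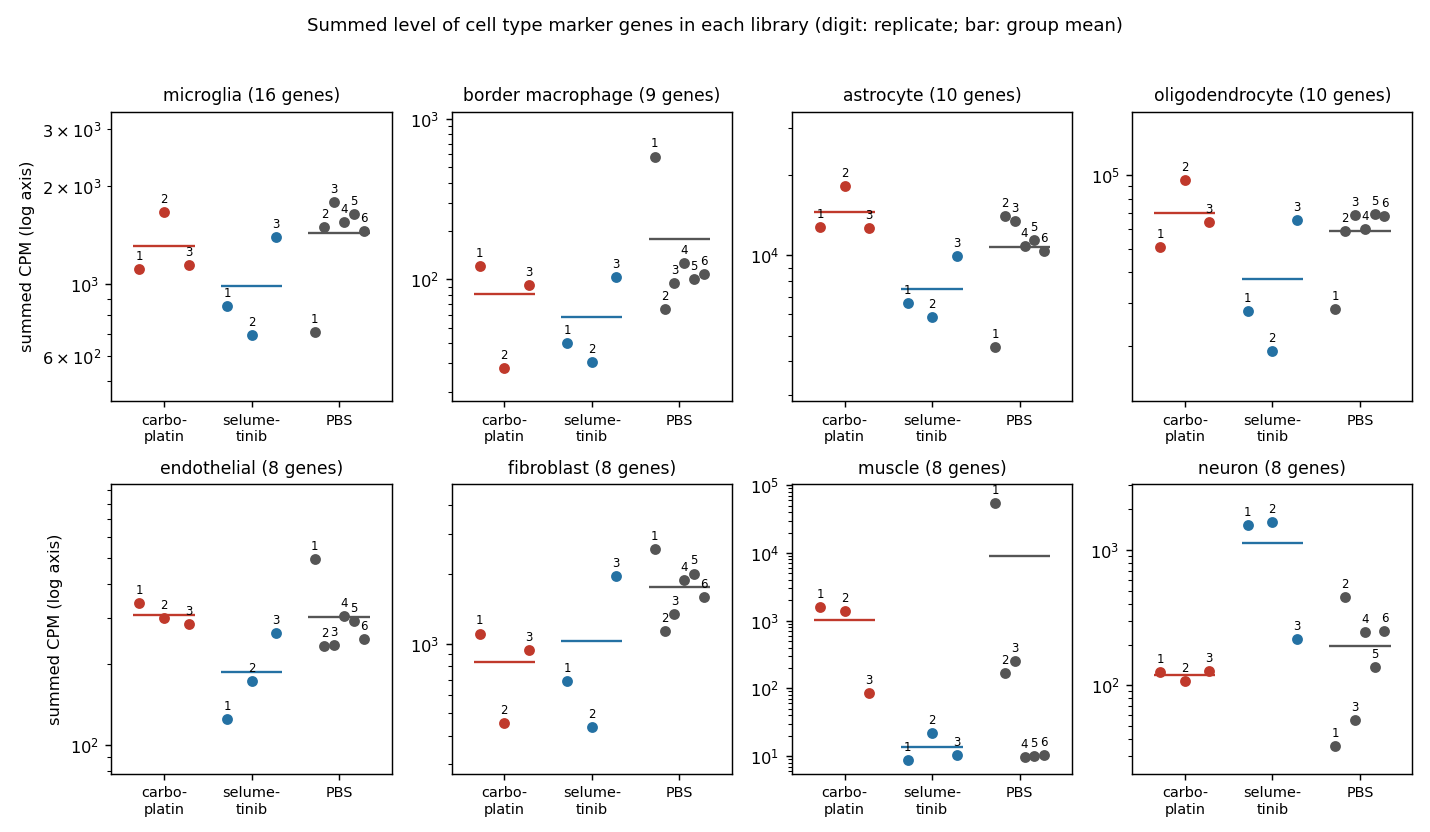
Summed CPM (log axes) of marker genes of 8 cell types in each carboplatin, selumetinib and PBS library. Points are libraries with their replicate number and bars are group means. Selumetinib 1 and 2 are low in microglia, astrocyte and oligodendrocyte sums and high in the neuron sum, and PBS 1 is high in muscle and endothelial sums and, mostly through the gene Cbr2, in the border macrophage sum. Gfap has the highest mean level of the astrocyte genes. Of these 10 genes 5 had a positive fitted log2 fold change for selumetinib over PBS.

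The other complement genes were taken from a list of pathway members, of which 50 were matched and 35 passed the filter. In carboplatin nerves against PBS nerves 0 of the 35 rose and 1 fell, where 1.57% and 0.518% of all genes did, and at an unadjusted p under 0.05 1 was higher and 8 lower, against 8.12% and 8.43% of all genes. In selumetinib nerves against PBS nerves 0 rose and 0 fell by edgeR (at an unadjusted p under 0.05, 3 were higher and 8 lower, against 14.0% and 1835 of all 18344 genes). Between carboplatin and selumetinib nerves 2 rose and 4 fell, where 5.65% and 8.35% of all genes did, and at an unadjusted p under 0.05 3 were higher and 7 lower, against 13.6% and 17.9% of all genes. Their median log2 fold changes in the 3 comparisons were -0.34, -0.53 and 0.19, against -0.11, -0.09 and -0.01 over all genes. The 15 genes that did not pass the filter included Mbl1 and Mbl2 (mannose-binding lectins), Cfb (factor B), Cfi (factor I), and C6, C8a, C8b and C9 of the membrane attack complex.

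Masp1, a serine protease of the lectin branch, fell in carboplatin nerves against PBS nerves. It was 5.05, 5.42 and 3.57 CPM in carboplatin 1 to 3, and its lowest and highest PBS values were 12.3 and 24.2 CPM, so the groups did not overlap. The means were 4.68 ± 0.979 CPM in carboplatin and 16.6 ± 4.86 CPM in PBS (log2 fold change -1.83 ± 0.39, edgeR adjusted p 0.0391), and the call passed in 10 of 20 alternatives (adjusted p 0.0143 without PBS 1), with values of -1.95 to -1.57 in all 20. Selumetinib 1 to 3 held 6.72, 7.38 and 19.6 CPM of it. Masp2, the lectin protease that cleaves C4 and C2, was 8.10, 6.85 and 7.08 CPM in carboplatin 1 to 3 and 17.1, 16.5 and 11.4 CPM in selumetinib 1 to 3. It fell in carboplatin nerves against selumetinib nerves (log2 fold change -1.03 ± 0.25, adjusted p 0.0253; -0.65 and adjusted p 0.251 without PBS 1, selumetinib 1 and selumetinib 2), and not past the test against PBS (-0.48 ± 0.22, adjusted p 0.294). Among all other lectin and classical genes the most abundant was Colec12, a scavenger receptor of the collectin family, at 129.7 ± 86.4 CPM in carboplatin, 72.9 ± 57.9 CPM in selumetinib and 108 ± 28.6 CPM in PBS.

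Among regulators, Clu rose in carboplatin nerves against selumetinib nerves. It encodes clusterin, which binds the terminal complex, and was the most abundant regulator, with 2628, 3308 and 2688 CPM in carboplatin 1 to 3, 1048, 1018 and 1614 CPM in selumetinib 1 to 3, and 736 CPM in PBS 1 and 1702 to 2162 CPM in PBS 2 to 6. All carboplatin libraries were above all others (log2 fold change 1.23 ± 0.37 over selumetinib, edgeR adjusted p 0.0475; 0.68 ± 0.31 over PBS, adjusted p 0.295). Without PBS 1, selumetinib 1 and selumetinib 2 the first was 0.82 (adjusted p 0.0919). Susd4, a membrane inhibitor of complement, and Csmd1 and Csmd2, large membrane proteins with sushi and CUB domains, fell in carboplatin nerves against selumetinib nerves, with log2 fold changes of -2.88 ± 0.68, -2.90 ± 0.84 and -2.39 ± 0.71 (adjusted p 0.0240, 0.0440 and 0.0469). Susd4 was 9.01, 10.8 and 5.71 CPM in carboplatin 1 to 3 and 85.2, 87.2 and 15.0 CPM in selumetinib 1 to 3, with 4.28 to 19.7 CPM in PBS libraries. Csmd1 and Csmd2 were likewise highest in selumetinib 1 and 2, at 16.4 and 27.2 CPM and at 34.9 and 30.6 CPM, where the neuron sum was also highest; of the 8 neuron genes only Slc17a7 was at 0, in selumetinib 3. Without PBS 1, selumetinib 1 and selumetinib 2 the log2 fold changes were -0.84, -0.21 and -1.30 for Susd4, Csmd1 and Csmd2, and none passed (adjusted p 0.290, 0.885 and 0.0714). The part of neuronal RNA in them was not tested.

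Of the receptors, C5ar1, which binds the C5 fragment C5a, rose in carboplatin nerves against selumetinib nerves, with 4.47, 6.73 and 9.05 CPM in carboplatin 1 to 3, 1.63, 0.497 and 3.08 CPM in selumetinib 1 to 3, and 2.05 to 4.85 CPM in PBS libraries (log2 fold change 1.96 ± 0.57, edgeR adjusted p 0.0435). Without PBS 1, selumetinib 1 and selumetinib 2 it was 1.12 (adjusted p 0.257). Clu, Csmd1, Csmd2 and C5ar1 each passed in 5 of 18 alternatives, and Masp2 and Susd4 in 11 of 18. Lrp1, the most abundant receptor, a large endocytic receptor, was 529 ± 88.9 CPM in carboplatin, 454 ± 30.1 CPM in selumetinib and 473 ± 121 CPM in PBS, and passed in no comparison. C8g, the most abundant of the terminal genes, was 2.68 ± 1.06, 2.47 ± 0.0583 and 2.28 ± 0.664 CPM in carboplatin, selumetinib and PBS libraries. Cfd, which encodes factor D of the alternative branch, had 80, 125 and 11 counts in carboplatin 1 to 3, 0 in each selumetinib library and 4732, 9, 62, 1, 0 and 0 in PBS 1 to 6, so that 220.3 CPM in PBS 1 stood against at most 5.10 CPM in any other library.

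**Figure D5:**
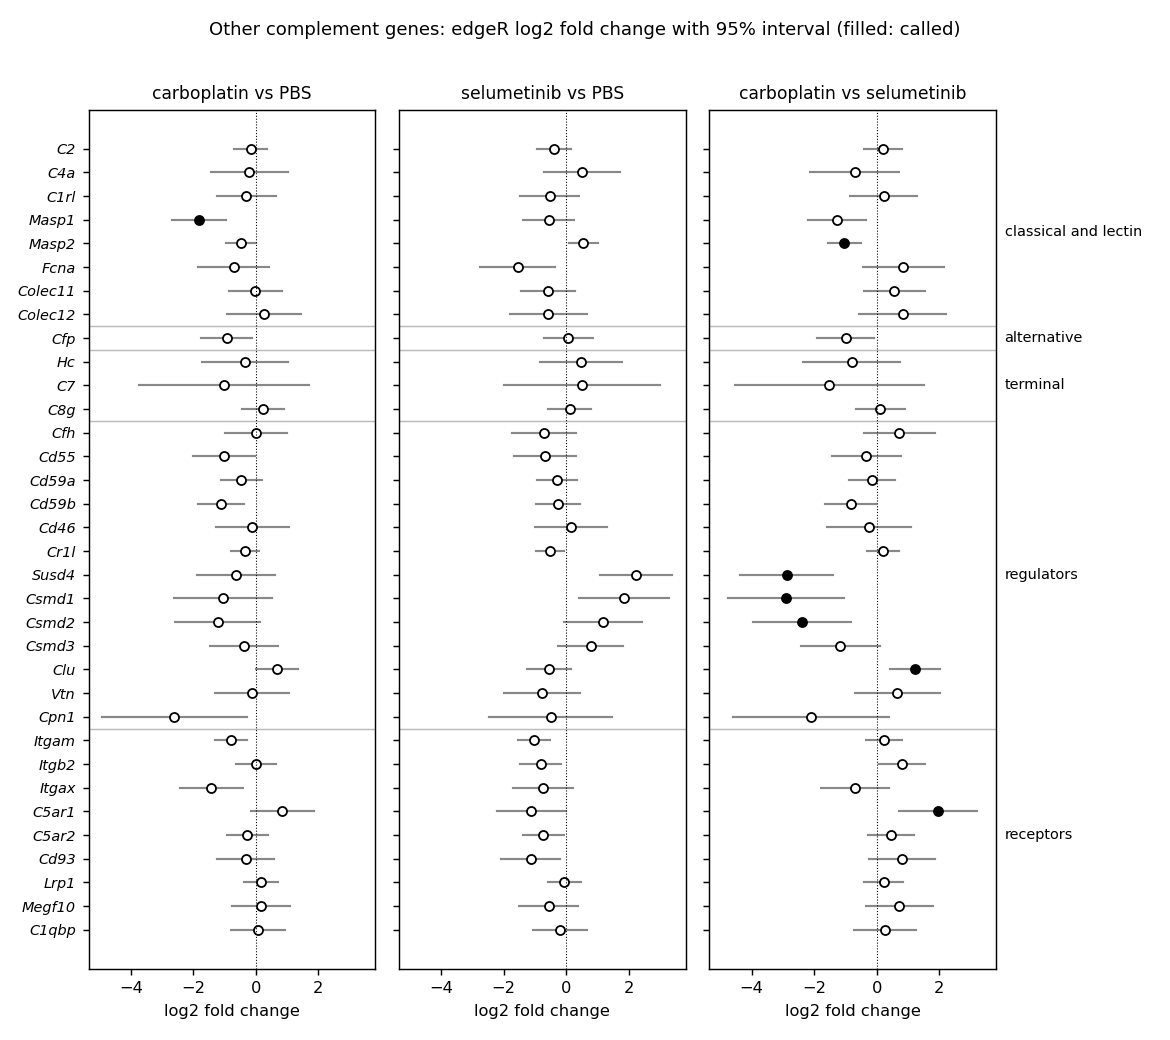
edgeR log2 fold changes (horizontal axes) with 95% intervals for 34 of the 35 other complement genes tested, by role, for carboplatin over PBS, selumetinib over PBS and carboplatin over selumetinib. Cfd is left out because its counts are 0 in every selumetinib library. Filled points have an adjusted p under 0.05: Masp1 in the first panel, none in the second, and Masp2, Susd4, Csmd1, Csmd2, Clu and C5ar1 in the third.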

How the data were processed

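The values are raw counts, deposited by the authors as 1 table with a row per Ensembl gene ID and a column for each of the 12 libraries. The submitters' processing notes name build mm10 and the tools STAR, HTSeq, Trimmomatic, FastQC and DESeq2. The sources used here give no tool versions, annotation, strand setting or filter. Groups came from the treatment label. The 9 genes, the gene lists and the rule for naming genes were chosen with earlier results of these data known. Named genes were the 9, other complement genes that were called or most abundant in their list, called marker genes, and the 3 nearest profiles of each.

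Counts were filtered with filterByExpr (minimum count 10, minimum total 15), scaled with TMM factors and tested with the quasi-likelihood test of edgeR 4.0.16 (R 4.3.3) in 1 model of 3 groups over 12 libraries, with Benjamini-Hochberg adjustment over 18344 genes and a threshold of 0.05. The common dispersion was 0.272. CPM are TMM-scaled, with a prior count of 2 in log2 CPM. An SE is the absolute log2 fold change divided by the square root of the F statistic. Intervals cover 95%. Precision rests on 3 to 6 libraries per group at 21793052 to 33375754 counts each and on the spread between them. The test was checked on simulated counts, where for carboplatin against PBS it recovered 6 of 100 genes changed 2-fold and 55 of 100 changed 4-fold among 18082 genes, so a 2-fold change is mostly missed at this spread. Alternatives were DESeq2 1.42.0, RLE factors, no filter, only the compared groups, PBS 1 to 3 or 4 to 6 as controls, the replicate number as a block, PBS 1, selumetinib 1 and 2 left out together, and each library left out in turn. Levels per kb, marker sums and the called marker genes without PBS 1 or without the leading gene of a sum were added after the data were seen. Of the gene IDs 34490 were matched to GENCODE M21 (GRCm38, the same assembly as mm10), which gave coordinates and exonic lengths.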

Additional observations from a re-analysis of the deposited data

Results flagged for a closer look

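In the PBS group of 6 libraries, 3 of the 9 genes had 1 library farther from the rest than the 95% Dixon limit for 6 values allows, and in each case it was PBS 1. C1s1 was 79.6 CPM there, with a gap of 0.916 of the range, against 6.20 to 12.4 CPM in PBS 2 to 6. C1ra was 31.7 CPM, with a gap of 0.855, against 5.28 to 9.11 CPM. C1qb was 86.1 CPM, with a gap of 0.751, against 132 to 147 CPM, and thus low where the proteases were high. Chance flags about 1 in 20 groups, and 9 were checked. These checks shared the same libraries and all 3 flags fell on PBS 1, so they were not independent. That rate therefore gives no expected number of flags here. The carboplatin and selumetinib groups of 3 libraries were not checked in this way.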

How the results depend on the processing

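Of 522 log2 fold changes of the 9 genes under alternatives, 477 kept their direction and their side of the threshold, 21 newly passed, 8 no longer passed (all C3 in carboplatin over selumetinib) and 16 changed sign. Beside 383 genes for carboplatin over PBS, DESeq2 called 1473, PBS 1 to 3 as controls 7, PBS 4 to 6 as controls 2202, the fit without PBS 1, selumetinib 1 and selumetinib 2 together 3073, and fits without 1 library 73 to 1941, with 0 of the 9 complement genes in each. Beside 0 genes for selumetinib over PBS, the counts were 2279 with DESeq2, 3 with PBS 1 to 3 as controls and 0 to 4089 without 1 library, with 1 (C1ra), 0 and 0 to 7 of the 9. With PBS 4 to 6 as controls none of the 9 passed for selumetinib over PBS. The count over all genes in that fit is not given here. Beside 2568 genes and 1 of the 9 for carboplatin over selumetinib, DESeq2 called 4604 and 5, the fit of only the compared groups 0 of the 9, the joint omission 516 and 0, and fits without 1 library 134 to 5974 and 0 to 7. DESeq2 gave an adjusted p to 8 of the 9.

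Signs changed only for log2 fold changes that had not passed. For carboplatin over PBS these were C4b (0.087 with PBS 1 to 3 as controls; -0.33 without PBS 1 to 0.040 without PBS 5), C3ar1 (0.065 with PBS 1 to 3; -0.15 without carboplatin 3 to 0.0049 without PBS 4), C1s1 (0.00040 with PBS 4 to 6, 0.20 in the joint omission; -1.15 without PBS 3 to 0.20 without PBS 1) and C1ra (0.10 in the joint omission; -0.76 without carboplatin 1 to 0.11 without PBS 1). In the joint omission selumetinib over PBS turned for C1qa (0.022) and C1s1 (0.34), and carboplatin over selumetinib for C1s1 (-0.14), C4b (-0.12) and C3ar1 (-0.10). Apart from the libraries left out, the cause was not tested.

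Between libraries of equal replicate number, the correlations of deviations from group means were -0.125 to 0.379, not all above 0.1. These correlations covered replicates 1 to 3 only, so both treatments were set against PBS 1 to 3 and not against the other PBS libraries. They therefore cannot decide whether libraries were paired. In the replicate block PBS 4 to 6 were alone in their numbers, so only PBS 1 to 3 entered the differences from PBS. With this block 5, 2 and 50 genes were called in the 3 comparisons and 0 of the 9 in each. C3 in carboplatin over selumetinib was then 2.25 (edgeR adjusted p 0.102), and for carboplatin over PBS C4b and C3ar1 turned to 0.37 and 0.067. At this depth all 9 genes passed the count filter, and 15 of the 50 other complement genes did not.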
